A study of Mus musculus with 16 samples.

Results

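The 10 genes described here, *Trem2*, *Tyrobp*, *Clec7a*, *Axl*, *Apoe*, *Lpl*, *Spp1*, *Gpnmb*, *Cst7* and *Aif1*, are genes of activated and phagocytic microglia. They were taken from a list of disease-associated microglia (DAM) and phagocytosis genes and matched by symbol in a table of 55487 gene identifiers from mouse cortex, and all 10 were found. The table holds 16 samples in 4 groups, with 3 PBS and 5 LPS mice at ZT1 and 3 PBS and 5 LPS mice at ZT13. All were wild-type male C57Bl6 mice 2 months of age that received i.p. LPS at 2 mg/kg, or PBS, in 2 injections on consecutive days, and their cortex was taken on the third day. ZT1 is 1 hour after lights-on and ZT13 falls in the early dark phase. The study asked whether the time of day (TOD) of the LPS challenge changes the inflammatory response of the brain, and the comparisons below give the LPS response at each time, the difference between times in LPS and in PBS mice, and the difference between the 2 responses.

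Microglia are the resident macrophages of the brain. TREM2 is a lipid-sensing receptor on their surface that has no signalling tail of its own and signals through the adaptor TYROBP (DAP12), which recruits the kinase SYK. In DAM, described around amyloid plaques and in demyelination, TREM2 signalling accompanies a loss of homeostatic genes such as *P2ry12* and *Tmem119*. It also accompanies a gain of lipid handling and phagocytosis genes, among them several members of this list. LPS is a bacterial cell wall component that activates innate immune cells through TLR4. Several of the 10 genes are also expressed by other cells. *Apoe* is made mainly by astrocytes, *Lpl* also by neurons, and *Tyrobp* by all myeloid cells. In bulk RNA, fewer cells of a type and less RNA per cell cannot be told apart.

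Values are CPM, the reads on a gene per 1000000 reads on all genes of the sample. The samples held 20251852 to 29112760 reads on genes by the spacing of their lowest values, and 3 reads, taken as the detection floor, are 0.103 to 0.148 CPM, a limit that covers counting error only. Treatment was read from the sample titles, since a separate treatment field contradicted them for 12 of the 16 samples, and *Gfap*, which reactive astrocytes raise, ranged from 111 to 123 CPM over the 6 samples with PBS titles and from 572 to 1134 CPM over the 10 with LPS titles. Of the LPS mice, ZT1 LPS replicate 2 stood apart as the lowest of its group for 7 of the 10 genes (*Spp1*, *Aif1*, *Cst7*, *Trem2*, *Tyrobp*, *Axl* and *Lpl*). Without it the counts of members called below were the same. The neuron markers summed to 4259 to 4963 CPM across all samples, as a check of the tissue label. A fold change below is on the log2(CPM + 0.5) scale, which understates the change of low genes, and a gene was called when its adjusted p in limma was under 0.05 over the 18859 genes that reached 1 CPM in 3 or more samples. The labels give each mouse as a separate sample.

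Promoter sequence is shown for the 3 members whose start-site region holds the PU.1 core GAGGAAG, since PU.1 is the lineage factor of myeloid cells and the members differ in how they moved after LPS. RefSeq windows on GRCm38.p6, from 250 bases before to 50 bases after the start site, were found for 8 of the 10 members, as 12 windows. The core, on either strand, was in *Spp1*, *Axl* and *Trem2*, and in 13.6% of all 32851 such windows. Members are given by gene and the shares over all by window, so they are not on the same unit. Each line gives 57 bases on the strand of the gene, 5′ to 3′, and the capitals mark the core, which reads as its reverse complement in *Axl* and *Trem2*.
*Spp1*, chr5:104434973-104435029, + strand, core starting 113 bases before the start site: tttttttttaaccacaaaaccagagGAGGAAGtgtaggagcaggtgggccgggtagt
*Axl*, chr7:25788833-25788889, − strand, core starting 131 bases before the start site: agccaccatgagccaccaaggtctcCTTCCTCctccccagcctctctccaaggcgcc
*Trem2*, chr17:48346335-48346391, + strand, core starting 41 bases before the start site: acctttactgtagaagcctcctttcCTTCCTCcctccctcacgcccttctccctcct
These 3 genes rose strongly, rose modestly and did not pass the test after LPS, respectively (values below). The E-box CACGTG, the sequence bound by CLOCK-BMAL1, was in none of the members' windows and in 7.15% of all windows. An ISRE core was in the windows of *Spp1* and *Aif1* and in 3.44% of all, and an NF-kappaB site was in none and in 0.155% of all. A match describes letters in a window, not a bound site.

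After LPS the list moved in both directions, and in the same directions at both times. At ZT1, 6 of the 9 members tested rose (*Spp1*, *Aif1*, *Tyrobp*, *Cst7*, *Gpnmb* and *Axl*), where 11.1% of all genes tested rose. At ZT1, *Apoe* and *Lpl* fell, where 5.15% of all genes fell, and *Trem2* did not pass the test. At ZT13 the same 6 rose against 19.2% of all genes, the same 2 fell against 9.4%, and *Trem2* again did not pass. *Clec7a* did not reach 1 CPM in 3 samples and was not tested. The median log2 fold change of the 9 members was 0.87 at ZT1 and 0.86 at ZT13, against 0.04 and 0.05 over all genes tested. The members were chosen with earlier results of these data known, so these counts and medians describe the list and do not test it. *Cst7* passed the filter on low values through the LPS groups alone. Over all genes, 68.2% of the calls at ZT1 and 67.2% at ZT13 were rises, and these shares became 54.1% and 51.0% with median-of-ratios factors, under which the same 8 members were called at each time and no called member changed direction.

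**Figure D1:**
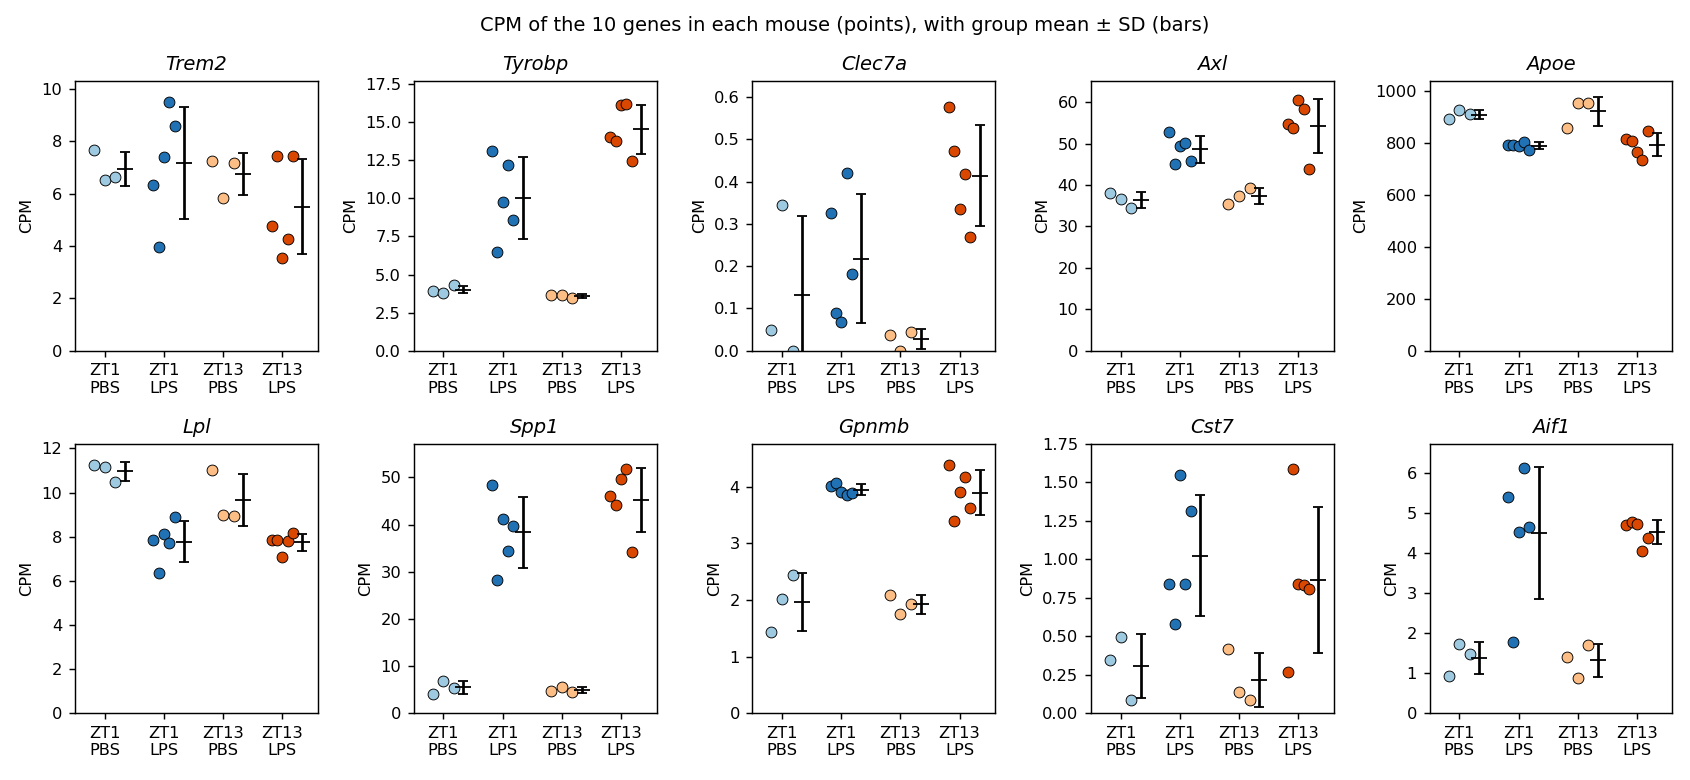
CPM of each of the 10 genes (y axes, linear, from 0) in each mouse (points) of the 4 groups (x axes), with the mean ± SD of each group as bars; the lower bar of *Clec7a* in ZT1 PBS is cut at 0. *Spp1*, *Tyrobp*, *Axl* and *Gpnmb* of the LPS mice lie above every PBS mouse of their time, *Apoe* and *Lpl* lie below, and *Trem2* overlaps.

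The receptor gene *Trem2* (ENSMUSG00000023992, chr17:48346401-48354147 of GRCm38) was at 7.69, 6.52 and 6.65 CPM in the 3 ZT1 PBS mice and at 6.34, 3.98, 7.42, 9.52 and 8.61 CPM in the 5 ZT1 LPS mice. The ZT13 values were 7.25, 5.83 and 7.17 CPM in PBS and 4.78, 7.43, 3.56, 4.28 and 7.43 CPM in LPS mice. The LPS values lay on both sides of the PBS values at each time. The log2 fold change was -0.01 at ZT1 (95% interval -0.48 to 0.47, adjusted p = 0.99) and -0.32 at ZT13 (95% interval -0.75 to 0.11, adjusted p = 0.27). A rise of the size seen for *Tyrobp* lay outside both intervals. At ZT1 the value ranged from -0.12 to 0.17 when 1 mouse was left out, and it was highest without ZT1 LPS replicate 2 (adjusted p = 0.42).

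*Tyrobp* (ENSMUSG00000030579, chr7:30413760-30417585) encodes the adaptor that TREM2 signals through. It was at 3.94, 3.80 and 4.29 CPM in ZT1 PBS and at 13.1, 6.49, 9.79, 12.2 and 8.61 CPM in ZT1 LPS mice. Its ZT13 values were 3.68, 3.65 and 3.45 CPM in PBS and 14.0, 13.8, 16.1, 16.2 and 12.4 CPM in LPS mice. No LPS mouse overlapped a PBS mouse. The mean rose 2.50-fold at ZT1, a log2 fold change of 1.19 (SE of the fit 0.19, adjusted p = 0.0015), and 4.04-fold at ZT13, a log2 fold change of 1.87 (SE 0.10, adjusted p = 7.9e-09). *Tyrobp* CPM divided by *Trem2* CPM, a ratio that depends on the lengths of both transcripts, was 0.481 to 0.646 in the 6 PBS mice, 1.00 to 2.07 in ZT1 LPS and 1.67 to 4.53 in ZT13 LPS mice. Every LPS mouse thus had a higher ratio than every PBS mouse. Per kb of the transcript used, the 2 genes were close in PBS cortex, with *Trem2* at 6.39 ± 0.591 and *Tyrobp* at 7.12 ± 0.449 CPM per kb at ZT1 (SD, n = 3). This closeness rests on the lengths taken. The transcript used for *Trem2* has 1088 bases where its merged exons have 4946, and that for *Tyrobp* 564 where its merged exons have 667. In ZT13 LPS cortex they were at 5.05 ± 1.67 and 25.8 ± 2.89 CPM per kb (SD, n = 5).

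**Figure D2:**
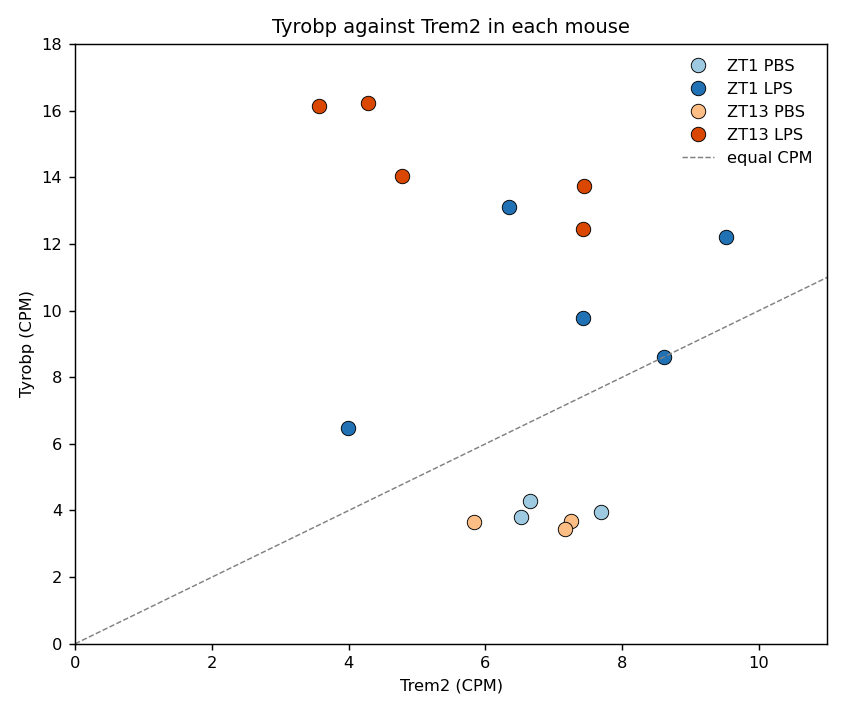
*Tyrobp* against *Trem2* (both in CPM, linear axes) in each of the 16 mice, coloured by group, with a dashed line of equal CPM. The 6 PBS mice lie below the line, and the LPS mice lie on or above it, with *Trem2* values on both sides of those of the PBS mice.

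Markers of blood myeloid cells were also higher in LPS mice. The 10 neutrophil markers summed to 0.971 to 2.36 CPM in the PBS mice, 15.7 to 67.5 CPM in ZT1 LPS and 48.3 to 120.3 CPM in ZT13 LPS mice, and of the 7 that could be tested 6 rose at ZT1 and 7 at ZT13. Of these 7 markers 6 were below 1 CPM in every PBS mouse and passed the filter on low values only through the LPS groups, as did 6 of the 8 monocyte and 2 of the 4 border macrophage markers tested, so the filter favoured a rise and the counts are a description. *S100a9*, a calprotectin subunit abundant in neutrophils, had log2 fold changes of 4.07 and 5.63 at ZT1 and ZT13, and its partner *S100a8* 2.87 and 4.57. In the ZT1 PBS mice 5 of the 10 neutrophil markers (*Ly6g*, *Camp*, *Retnlg*, *Cxcr2* and *Mmp8*) were at or under the floor in every sample, and in LPS cortex *Ly6g* stayed there at ZT1 and *Camp* at ZT13. The 8 monocyte markers summed to 86.6 to 115 CPM in PBS, 98.8 to 198 CPM in ZT1 LPS and 159 to 187 CPM in ZT13 LPS mice, and 7 rose at ZT1 and 8 at ZT13, with *Chil3* at log2 fold changes of 2.53 and 4.87 and the factor XIII gene *F13a1* at 1.75 and 2.15. Of these 8, 6 were below 1 CPM in every PBS mouse, and *F13a1* averaged 2.02 and 2.86 CPM in ZT1 and ZT13 PBS mice. The PBS sum thus came almost all from *Fn1*, the 1 marker not called at ZT1 (0.38, adjusted p = 0.15). The 7 border macrophage markers summed to 6.74 to 9.55 CPM in PBS and 7.56 to 17.2 CPM in LPS mice, and of the 4 tested 2 rose at ZT1 and 1 at ZT13, *Cd163*, a haemoglobin scavenger receptor gene, at both (1.07 and 1.07). The part of these cells in the change of *Tyrobp* and of the other members was not tested.

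*Clec7a* (ENSMUSG00000079293, chr6:129461591-129472779, annotated as a polymorphic pseudogene) encodes the beta-glucan receptor dectin-1, which signals through SYK. It was at 0.0493, 0.346 and 0 CPM in ZT1 PBS and at 0.326, 0.0895, 0.0687, 0.420 and 0.181 CPM in ZT1 LPS mice, that is 0 to 7 and 2 to 12 reads. The ZT1 groups overlapped, and the highest PBS mouse exceeded 4 of the 5 LPS mice. At ZT13 it was at 0.0380, 0 and 0.0448 CPM in PBS, at most 1 read per mouse, and at 0.576, 0.473, 0.335, 0.417 and 0.269 CPM in LPS mice, or 6 to 13 reads. Every ZT13 LPS mouse was above the 3 ZT13 PBS mice, although 2 of the 5 were below the highest ZT1 PBS mouse. The ZT13 LPS mean was 3.21 times the mean floor of the ZT13 PBS mice. Those PBS mice were all under the floor, so the LPS mean was at least that many times theirs. An exact two-sided permutation test gave p = 0.036 at ZT13, the smallest that 5 mice against 3 can give, and p = 0.43 at ZT1, and over the 40 such tests of 10 genes in 4 comparisons the adjusted p at ZT13 was 0.084.

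Other genes of this pathway were read from a list of 21 TREM2-TYROBP signalling genes, of which 17 could be tested. Of these 17, 5 passed the filter only through the LPS groups, *Ms4a6d* among them. For these 5 the filter favoured a rise, and the counts and medians are a description. At ZT1 11 rose and 1 fell, and at ZT13 14 rose and 1 fell, with medians of 0.96 and 1.46. Without ZT1 LPS replicate 2, 14 rose at ZT1. *Syk*, the kinase recruited by TYROBP, rose by 0.87 on the log2 scale at ZT1 (adjusted p = 0.037) and by 1.82 at ZT13 (adjusted p = 3.4e-07), and *Plcg2*, the phospholipase downstream of it, by 1.26 and 1.52. The ZT1 call of *Syk* did not hold with quantile normalization (0.74, adjusted p = 0.061). The largest rises at ZT13 were those of *Ms4a6d*, a membrane protein gene of myeloid cells (3.59, and 2.78 at ZT1), and *Ptpn6*, which encodes the inhibitory phosphatase SHP-1 (2.64, and 1.72 at ZT1). The 1 fall was that of *Siglech*, a microglial lectin that also pairs with TYROBP, with -2.43 at ZT13 and -1.75 at ZT1.

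*Axl* (ENSMUSG00000002602, chr7:25757273-25788705) encodes a receptor kinase of the TAM family that binds phosphatidylserine on dying cells through GAS6. It was at 38.1, 36.5 and 34.5 CPM in ZT1 PBS and at 52.8, 45, 49.5, 50.1 and 45.7 CPM in ZT1 LPS mice. In the ZT13 groups it was at 35.3, 37.2 and 39.2 CPM in PBS and at 54.6, 53.8, 60.6, 58.4 and 43.8 CPM in LPS mice. The groups did not overlap at either time. The rise was modest, with a log2 fold change of 0.41 at ZT1 (SE 0.06, adjusted p = 0.0012) and 0.53 at ZT13 (SE 0.08, adjusted p = 0.00030). The other TAM receptors did not follow *Axl*: *Tyro3* fell at both times (-0.40 and -0.42), and *Mertk* rose at ZT1 (0.24, adjusted p = 0.029) and fell at ZT13 (-0.24, adjusted p = 0.019). *Mertk* was also higher at ZT13 than at ZT1 in PBS mice (0.49, adjusted p = 0.011), and the difference between its 2 responses, -0.49, missed the threshold (adjusted p = 0.077). That difference was called with quality weights (-0.53, adjusted p = 0.012) and without ZT1 LPS replicate 1 (-0.54, adjusted p = 0.015), and in no other alternative. The call in PBS mice was lost with no filter on low values (adjusted p = 0.17), with no intensity trend (adjusted p = 0.16), and without any 1 of the ZT1 PBS mice or ZT13 PBS replicate 2 (adjusted p = 0.057 to 0.080). The ZT1 rise of *Mertk* was not called with median-of-ratios factors (0.20, adjusted p = 0.086) or quantile normalization (0.19, adjusted p = 0.098). Of the TAM ligands, *Pros1* rose (1.39 and 1.60), whereas *Gas6* did not pass the test (0.07 and -0.11), although its ZT13 value did with median-of-ratios factors (-0.17, adjusted p = 0.014). Of 18 TAM and engulfment genes, 16 were tested, and 6 rose and 2 fell at ZT1 and 9 rose and 4 fell at ZT13. The largest rises at ZT13 were those of the haematopoietic GTPase gene *Rac2* (3.75, and 2.66 at ZT1) and the scavenger receptor gene *Stab1* (2.11, and 1.36 at ZT1), and the largest falls those of the bridging protein gene *Mfge8* (-1.02, and -0.77 at ZT1) and of *Tyro3*.

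*Apoe* (ENSMUSG00000002985, chr7:19696109-19699188) encodes the main lipid carrier of the brain and a TREM2 ligand, and was by far the most abundant of the 10 per kb of transcript, at 646 ± 12.4 CPM per kb in ZT1 PBS cortex (SD, n = 3). It was at 891, 926 and 911 CPM in ZT1 PBS and at 793, 794, 790.3, 805 and 772 CPM in ZT1 LPS mice. The ZT13 PBS mice had 859, 953 and 955 CPM and the ZT13 LPS mice 815, 807, 767, 734 and 846 CPM. Every LPS mouse was below every PBS mouse of its time. The fall was small, with log2 fold changes of -0.20 at ZT1 (SE 0.03, adjusted p = 0.0011) and -0.22 at ZT13 (SE 0.05, adjusted p = 0.0039). The ZT13 call did not hold when all genes with any read were tested (adjusted p = 0.059). The astrocyte markers summed to 5138 to 5579 CPM in PBS mice and to 5615 to 6458 CPM in LPS mice. This sum includes the reactivity gene *Gfap*, whose mean went from 116 to 731 CPM at ZT1 and from 118 to 1013 CPM at ZT13. The mean of the sum went from 5201 to 5888 CPM at ZT1, and most of that rise was that of *Gfap*. At ZT13 it went from 5389 to 6118 CPM, a smaller rise than that of *Gfap* alone. The other astrocyte markers together were thus lower in ZT13 LPS than in ZT13 PBS mice. The sum does not measure astrocyte RNA in general.

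*Lpl* (ENSMUSG00000015568, chr8:68880491-68907448) encodes lipoprotein lipase. It was at 11.2, 11.2 and 10.5 CPM in ZT1 PBS and at 7.84, 6.36, 8.14, 7.70 and 8.88 CPM in ZT1 LPS mice. At ZT13 it was at 11, 8.97 and 8.96 CPM in PBS and at 7.84, 7.86, 7.09, 7.81 and 8.15 CPM in LPS mice. The groups did not overlap, although at ZT13 a single PBS mouse stood well above the other two. The log2 fold change was -0.48 at ZT1 (SE 0.10, adjusted p = 0.0092) and -0.29 at ZT13 (SE 0.09, adjusted p = 0.028). The ZT13 call was lost without ZT13 PBS replicate 1 (-0.20, adjusted p = 0.17), without ZT13 LPS replicate 3 (-0.26, adjusted p = 0.057) and with all genes tested (adjusted p = 0.058). The neuron markers, in the direction of *Lpl*, summed to 4610 to 4963 CPM in PBS and 4259 to 4580 CPM in LPS mice, and their part in its change was not tested.

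Of 18 lipid handling genes, 15 were tested, and 7 rose and none fell at ZT1, while 9 rose and 3 fell at ZT13. With no filter on low values, 5 rose at ZT1, and without ZT1 LPS replicate 2, 9 rose and 1 fell. *Abca1*, which loads lipid onto APOE, rose (0.68 and 0.84), in the opposite direction to *Apoe*. The largest rises at ZT13 were those of *Apod*, a lipid carrier of the lipocalin family (3.38, and 2.53 at ZT1), and *Angptl4*, an inhibitor of lipoprotein lipase (2.27, and 2.31 at ZT1). The largest fall was that of *Pltp*, the phospholipid transfer protein gene (-0.55, and -0.53 at ZT1, where it did not pass with adjusted p = 0.11). *Gpihbp1*, the capillary anchor of lipoprotein lipase, was at or under 3 reads in all 16 samples.

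*Spp1* (ENSMUSG00000029304, chr5:104435118-104441050) encodes osteopontin, a secreted phosphoprotein, and showed the largest log2 fold change of the 9 members tested at both times. It was at 4.14, 6.91 and 5.43 CPM in ZT1 PBS and at 48.4, 28.3, 41.2, 34.3 and 39.7 CPM in ZT1 LPS mice. The ZT13 values were 4.71, 5.69 and 4.52 CPM in PBS and 46.1, 44.2, 49.6, 51.8 and 34.1 CPM in LPS mice. The lowest LPS mouse was several times above the highest PBS mouse at both times. The mean rose 6.98-fold at ZT1, a log2 fold change of 2.70 (SE 0.17, adjusted p = 2.3e-06), and 9.08-fold at ZT13, a log2 fold change of 3.05 (SE 0.12, adjusted p = 4.3e-10). *Spp1* overlaps the gene model *Gm42793* on the same strand, which was at most at 0.158 CPM in any sample.

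*Gpnmb* (ENSMUSG00000029816, chr6:49036546-49070929) encodes a transmembrane glycoprotein of lysosome-rich phagocytes. It was at 1.43, 2.02 and 2.44 CPM in ZT1 PBS and at 4.01, 4.07, 3.92, 3.85 and 3.90 CPM in ZT1 LPS mice. At ZT13 it was at 2.09, 1.76 and 1.93 CPM in PBS and at 4.38, 3.39, 3.90, 4.17 and 3.63 CPM in LPS mice. The groups did not overlap at either time. The means differed 2.01-fold at ZT1 and 2.02-fold at ZT13, with log2 fold changes of 0.87 (SE 0.14, adjusted p = 0.0017) and 0.86 (SE 0.12, adjusted p = 0.00012).

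*Cst7* (ENSMUSG00000068129, chr2:150570415-150578944) encodes cystatin F, an inhibitor of lysosomal cathepsins. It was at 0.345, 0.494 and 0.0842 CPM in ZT1 PBS and at 0.840, 0.582, 1.55, 0.840 and 1.31 CPM in ZT1 LPS mice. At ZT13 it was at 0.418, 0.139 and 0.0896 CPM in PBS and at 0.266, 1.59, 0.839, 0.834 and 0.806 CPM in LPS mice. The groups were apart at ZT1, while at ZT13 1 LPS mouse lay within the PBS range. The log2 fold change was 0.91 at ZT1 (SE 0.25, adjusted p = 0.029) and 0.89 at ZT13 (SE 0.28, adjusted p = 0.028). These were the least stable calls of the list: with no filter on low values the adjusted p was 0.12 and 0.15, with quantile normalization 0.15 and 0.32, and the replicate left out also mattered. At ZT1 the call ended without PBS replicate 1 (adjusted p = 0.077), PBS replicate 3 (0.13) or LPS replicate 3 (0.064), and at ZT13 without PBS replicate 2 (0.094), PBS replicate 3 (0.11), LPS replicate 2 (0.057) or LPS replicate 4 (0.052).

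*Aif1* (ENSMUSG00000024397, chr17:35170991-35176068) encodes IBA1, the calcium-binding protein stained to show microglia. It was at 0.937, 1.73 and 1.47 CPM in ZT1 PBS and at 5.41, 1.79, 4.53, 6.13 and 4.67 CPM in ZT1 LPS mice. In the ZT13 groups it was at 1.40, 0.879 and 1.70 CPM in PBS and at 4.69, 4.77, 4.74, 4.05 and 4.39 CPM in LPS mice. The groups did not overlap, but ZT1 LPS replicate 2 lay just above the highest PBS mouse, far below the other 4. The log2 fold change was 1.35 at ZT1 (SE 0.30, adjusted p = 0.010) and 1.48 at ZT13 (SE 0.15, adjusted p = 5.2e-06). Without ZT1 LPS replicate 2 the ZT1 value was 1.61 (adjusted p = 9.3e-05), and without ZT1 PBS replicate 1 it was 1.17 and not called (adjusted p = 0.063), nor was it with no filter on low values (adjusted p = 0.10).

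**Figure D3:**
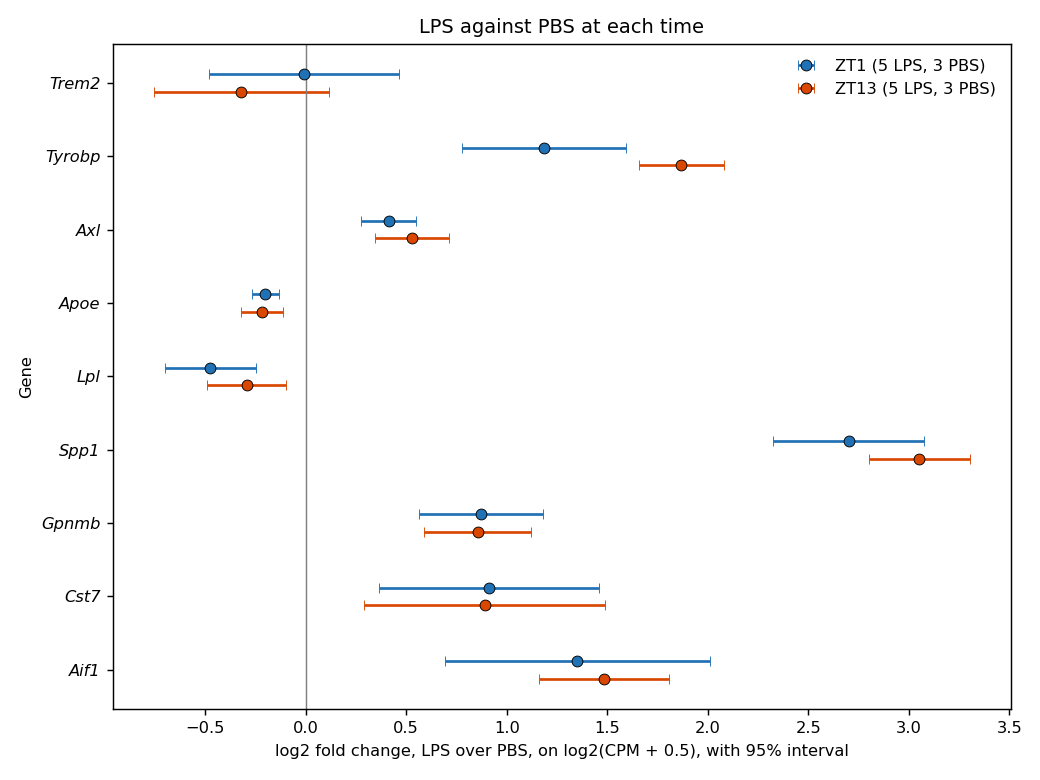
Log2 fold change of LPS over PBS on the log2(CPM + 0.5) scale (x axis) for the 9 genes tested (y axis), at ZT1 and ZT13, with 95% intervals as bars. *Spp1*, *Tyrobp*, *Aif1*, *Cst7*, *Gpnmb* and *Axl* lie to the right of 0 at both times, *Apoe* and *Lpl* to the left, and the intervals of *Trem2* cross 0.

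Of 28 other DAM genes, 27 were tested, and 19 rose and 1 fell at ZT1 and 19 rose and 2 fell at ZT13, with medians of 0.81 and 0.95. Of these 27, 6 passed the filter only through the LPS groups, *Cd52* and *Lgals3* among them. For these 6 the filter favoured a rise, and the counts and medians are a description. With no filter on low values, 14 rose at ZT1. The lysosomal gene *Cd68* rose (1.30 and 1.49), as did *Lgals3*, which encodes galectin-3 (1.5 and 2.30). The integrin gene *Itgax* did not reach the filter, and was at 0.220 ± 0.0670 CPM in ZT1 PBS (SD, n = 3), 0.669 ± 0.320 CPM in ZT1 LPS (SD, n = 5), 0.106 ± 0.0541 CPM in ZT13 PBS (SD, n = 3) and 0.729 ± 0.279 CPM in ZT13 LPS cortex (SD, n = 5). The largest rises at ZT13 were those of the lysozyme gene *Lyz2* (3.83, and 2.76 at ZT1) and of *Cd52*, a leukocyte surface glycoprotein gene (3.53, and 2.34 at ZT1), both of which blood myeloid cells also express. The falls at ZT13 were those of the adhesion gene *Cadm1* (-0.27, and -0.19 at ZT1) and *Ank* (-0.10, and -0.01 at ZT1, where it did not pass).

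Homeostatic microglial genes split. Of the 14, all tested, 6 rose and 2 fell at ZT1 and 6 rose and 4 fell at ZT13. *P2ry12*, the purinergic receptor of resting processes, fell at both times (-1.07 and -1.16). *Tmem119*, by contrast, rose (0.72 and 0.68), as did the CSF1 receptor gene *Csf1r* (0.59 and 0.59) and the fractalkine receptor gene *Cx3cr1* (0.64 and 0.85). With *Cx3cr1* the largest rise at ZT13 was that of *Sparc* (0.85, and 0.62 at ZT1), a matricellular protein gene that endothelial cells also express. The largest falls were those of *Siglech* and *Gpr34*, a lysophosphatidylserine receptor gene (-1.25, and -0.72 at ZT1, where it did not pass with adjusted p = 0.078). The rises at ZT1 were sensitive to the filter, and only 2 were called with no filter on low values.

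**Figure D4:**
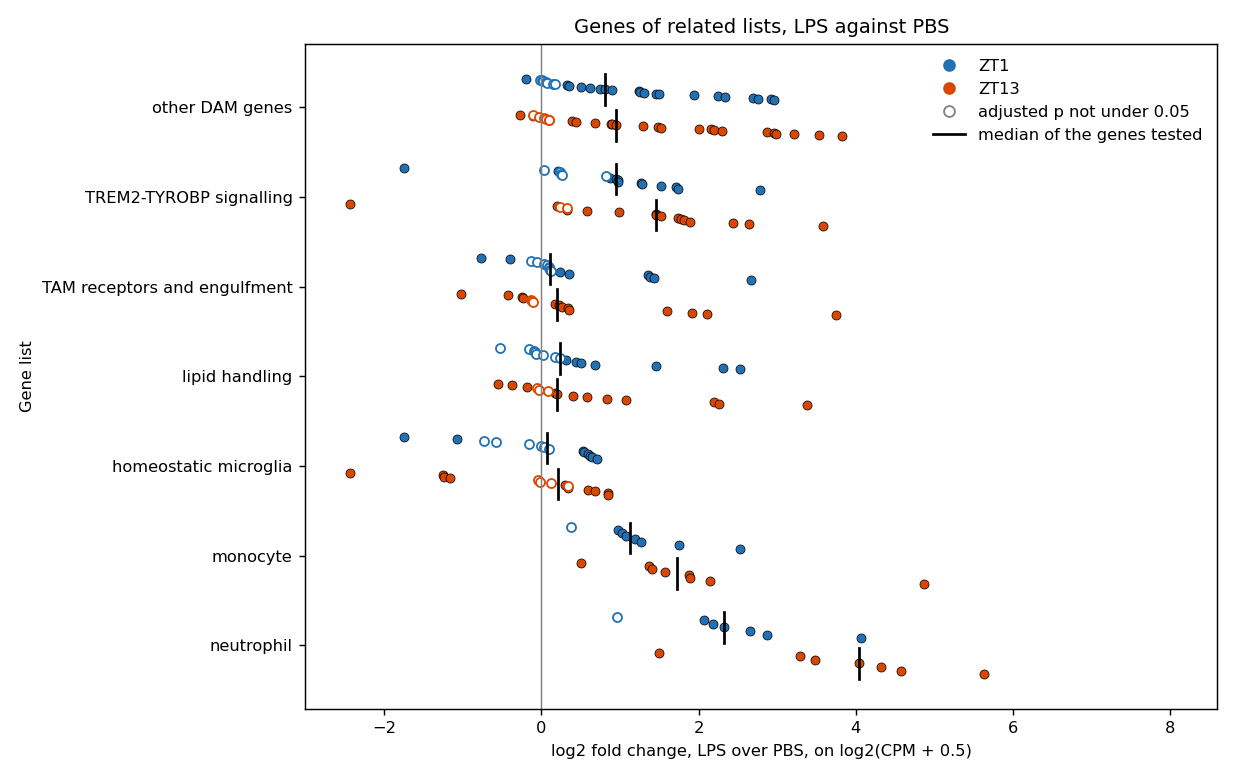
Log2 fold change of LPS over PBS on the log2(CPM + 0.5) scale (x axis) for each tested gene of 7 gene lists (y axis), at ZT1 and ZT13; filled points passed an adjusted p under 0.05, open points did not, and black lines are medians. Genes of the DAM, TREM2-TYROBP, monocyte and neutrophil lists lie mostly to the right of 0, while the homeostatic list lies on both sides.

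No member was called by TOD with all mice in the fit. Between ZT13 LPS and ZT1 LPS mice 0 of the 9 members were called, where 0.0212% of all genes were (4 of 18859, and 1998 at an unadjusted p under 0.05). *Tyrobp* was the 1 member with an unadjusted p under 0.05, with means of 10.04 ± 2.69 CPM at ZT1 and 14.5 ± 1.63 CPM at ZT13 (SD, n = 5 each). Its log2 difference was 0.54 (95% interval 0.21 to 0.88, limma adjusted p = 0.20). The 2 groups overlapped by 1 mouse, since ZT1 LPS replicate 1, at 13.1 CPM, was above the lowest ZT13 mouse. Without that mouse the difference was 0.65 with an adjusted p of 0.042, and over the other 20 alternatives the adjusted p was above 0.05. Its exact two-sided permutation p was 0.016, and 0.084 after adjustment over the 40 permutation tests. The LPS against PBS tests at their smallest p had the same adjusted value, since all comparisons were adjusted together, and it thus depends on those tests.

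*Clec7a* was at 0.217 ± 0.152 CPM in ZT1 LPS and 0.414 ± 0.119 CPM in ZT13 LPS mice (SD, n = 5 each, exact two-sided permutation p = 0.063). *Spp1* differed by 0.24 (95% interval -0.05 to 0.53) and *Axl* by 0.15 (95% interval -0.02 to 0.32). *Trem2*, in the other direction, was at -0.36 (95% interval -0.85 to 0.14). *Apoe* was at 0.00 (95% interval -0.08 to 0.08), *Lpl* at 0.00 (95% interval -0.19 to 0.19) and *Gpnmb* at -0.02 (95% interval -0.22 to 0.17). The intervals of *Aif1* (-0.39 to 0.57) and *Cst7* (-0.72 to 0.34) were wider.

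In PBS mice 0 of the 9 members were called by time, and 0 had an unadjusted limma p under 0.05, where 0.52% of all genes were called (98, and 2543 at an unadjusted p under 0.05). The largest differences were those of *Lpl* (-0.18, 95% interval -0.40 to 0.04), *Cst7* (-0.17, 95% interval -0.73 to 0.39) and *Tyrobp* (-0.14, 95% interval -0.40 to 0.12). *Tyrobp* was the 1 gene of the 10 whose PBS groups did not overlap, with all 3 ZT13 mice below all 3 ZT1 mice, and its exact permutation p of 0.10 is the smallest that 3 mice against 3 can give. Of the 20 arrangements of such groups a share of 0.1 separates them, so chance alone gives about 1 gene of 10. For the difference between the 2 LPS responses, 0 of the 9 members were called against 0.159% of all genes (30, and 1745 at an unadjusted p under 0.05). *Tyrobp* was again the 1 member with an unadjusted p under 0.05, its response at ZT13 being larger by 0.68 (95% interval 0.21 to 1.15, limma adjusted p = 0.30). For *Spp1* the difference was 0.35 (95% interval -0.13 to 0.83), for *Trem2* -0.31 (95% interval -1.0 to 0.38) and for *Apoe* -0.01 (95% interval -0.14 to 0.11).

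**Figure D5:**
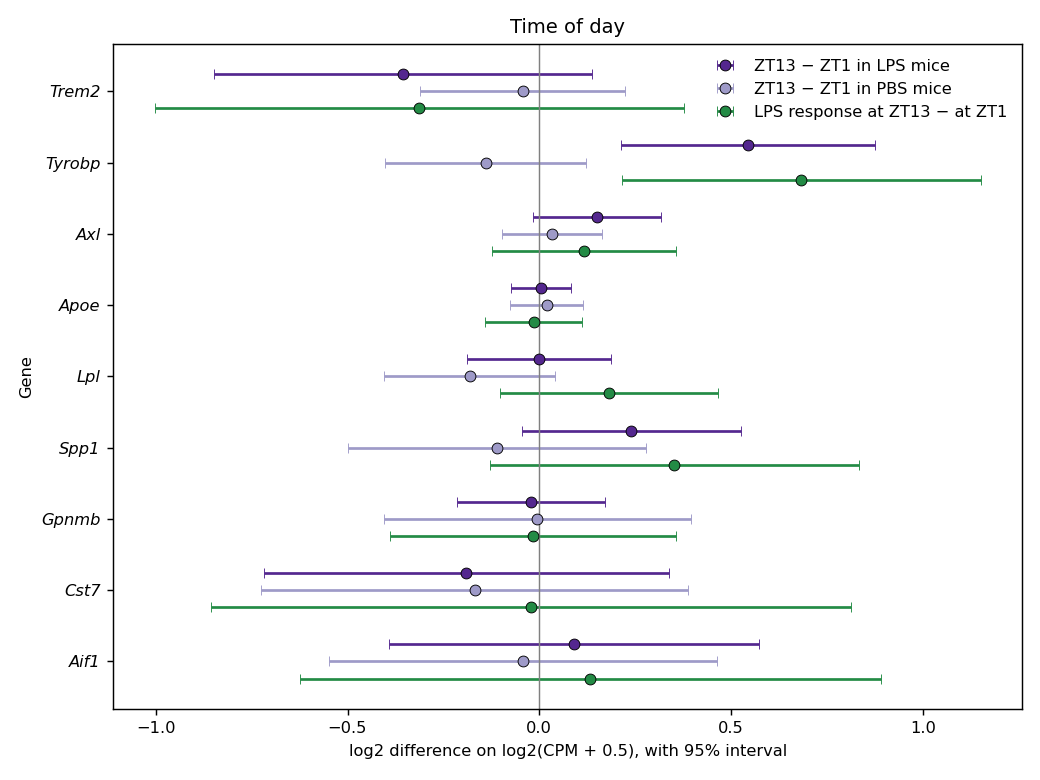
Log2 differences on the log2(CPM + 0.5) scale (x axis) for the 9 genes tested (y axis): ZT13 minus ZT1 in LPS mice, ZT13 minus ZT1 in PBS mice, and the LPS response at ZT13 minus that at ZT1, with 95% intervals that are not adjusted for the number of genes. Only the LPS and response intervals of *Tyrobp* lie clear of 0.

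Of the context lists described so far, *Mertk* in PBS mice was the 1 gene called by time of day, and none was called between the LPS groups or for the difference of responses. The neutrophil markers had a median difference between ZT13 LPS and ZT1 LPS of 1.48 with no marker called, and the monocyte markers a median of 0.51 and none called. Several of these counts of 0 changed without 1 mouse, and some changed with all mice kept. Without ZT1 LPS replicate 1, 345 of all genes were called between the LPS groups, among them *Tyrobp*, 6 of the other DAM genes, 5 neutrophil markers, 3 lipid handling genes, 2 monocyte markers and 1 gene each of the TREM2-TYROBP, TAM and homeostatic lists, each higher at ZT13. For the difference of responses 104 genes were then called, with a larger response at ZT13 for 2 lipid handling genes, 2 neutrophil markers and 1 gene each of the other DAM, TAM and monocyte lists, and a smaller one for 1 TAM gene. The other DAM and lipid handling lists share *Plin2*, and the counts without this mouse may hold it in both. With quality weights, 225 genes were called between the LPS groups, among them 3 lipid handling genes, higher at ZT13, and 1 TAM gene, lower. The difference of responses then had 124 calls, among them 1 other DAM gene and 1 TAM gene with a larger response and 1 TAM gene with a smaller one. In a single fit of all 16 samples, 122 genes were called between the LPS groups. Among these, 1 gene each of the TREM2-TYROBP and TAM lists was higher. Lower was 1 gene each of the TREM2-TYROBP and homeostatic lists, which share *Siglech*.

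The 10 genes were also described by the genes whose log2 values followed them most closely over the 16 samples, which mix the treatment effect with variation within groups. *Tyrobp* followed *Hcls1*, *Cd52* and *Rac2* (Pearson r = 0.99 each), genes of haematopoietic cells. *Spp1* followed *Serping1*, *Fcgr1* and *Cp* (r = 0.99 each), *Axl* followed *Hmox1*, *Lilrb4a* and *Slfn1* (r = 0.97 to 0.98), *Gpnmb* followed *Itih2*, *Ch25h* and *Serping1* (r = 0.96 to 0.97), and *Aif1* followed *AU020206*, *Rps6ka1* and *Mcm3* (r = 0.97 each). *Trem2* followed a different kind of gene, *Wdr66*, *Fcrls* and *Gpr17* (r = 0.88 each), of which *Fcrls* is a homeostatic microglial gene and *Gpr17* a gene of oligodendrocyte precursors. *Lpl* followed *Fras1*, *Samd4* and *Sema5b* (r = 0.93 to 0.95) and *Apoe* followed *Pura*, *Celf4* and *Hip1r* (r = 0.91 to 0.92). The low genes gave lower values, with r = 0.85 to 0.87 for *Cst7* (*Ifi27*, *Il21r* and *Rfc1*) and r = 0.90 to 0.94 for *Clec7a* (*Lmf2*, *Ttc7* and *Tcf7l1*).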

How the data were processed

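Libraries were made from total RNA of mouse cortex with ribosomal RNA removed. The authors deposited 1 table of CPM, reads per gene scaled to 1000000 reads on all genes of the sample. The submitters' processing notes name bcl2fastq, DRAGEN 4.0.3-8 and GRCm38. Of 55774 table lines, 287 repeated a gene with identical values and were dropped. Only 83.6% to 85.3% of values up to 20 reads were whole within 0.05 of a read, so no count test was run. Coordinates and transcript lengths are from GENCODE M21 (55141 identifiers matched). The members and gene lists were chosen with earlier results of these data known. Genes that reached 1 CPM in 3 or more samples were compared on log2(CPM + 0.5) with limma 3.58.1 (R 4.3.3, intensity trend, Benjamini-Hochberg over 18859 genes), each pairwise comparison on its own groups and the interaction on all 16 samples. The fit was checked on simulated data. Genes named beyond the members were fixed by role, or were the 2 largest rises and falls of each list called at ZT13, and some of them are not reported here. Per-kb levels used the principal or longest transcript. Alternatives were pseudocounts of 0.1 and 1, no filter, a filter at 5 CPM, quantile normalization, median-of-ratios factors, quality weights, a single fit, no intensity trend, correction for GC content and length, a replicate block, treatment as the treatment field gives it, and omission of each mouse in turn. The study's methods call the mice littermates, but no source used here ties a replicate number to a litter or batch. Permutation tests and figures used Python with scipy and matplotlib.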

Additional observations from a re-analysis of the deposited data

Results flagged for a closer look

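Among the 10 members, no LPS mouse lay far enough from its group to exceed Dixon's 95% critical value for 5 samples (0.71). Of 126 groups of 5 LPS mice checked for 63 named genes, 7 did so, where chance gives about 1 in 20. In ZT1 LPS these were *Pltp* and *Tmem119*, low in replicate 2 at 14.7 and 14.8 CPM (the next lowest mice were at 27.3 and 23.2), and *Lgals3*, *Dcn* and *Aqp4*, high in replicate 1 at 3.22, 31.8 and 109.8 CPM (the next highest were at 1.41, 26.0 and 84.8). In ZT13 LPS they were *Mfge8*, high in replicate 5 at 74.1 CPM (next 64.3), and *Pdgfra*, high in replicate 1 at 79.1 CPM (next 71.2). The LPS response differed between the times for the endothelial genes *Cldn5*, larger at ZT13 by 1.36 (log2, limma interaction adjusted p = 0.013), and *Pecam1*, larger by 0.78 (adjusted p = 0.041). Both calls were lost with no filter on low values (adjusted p = 0.068 and 0.14) and with no intensity trend (adjusted p = 0.073 and 0.14). That of *Cldn5* was also lost without ZT1 PBS replicate 1 (adjusted p = 0.051) or ZT13 PBS replicate 2 (adjusted p = 0.0502). That of *Pecam1* was kept in 5 of 10 alternatives with all mice and in 5 of 16 with a mouse left out, those without ZT1 LPS replicate 1, 2 or 4, ZT13 PBS replicate 3 or ZT13 LPS replicate 1 (adjusted p up to 0.15 in the others).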

How the results depend on the processing

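With 3 PBS mice per time and low reads for *Clec7a*, *Cst7* and *Itgax*, small changes were not detectable. The 8 members called at each time became 5 with a filter at 5 CPM, which tests fewer members, and 0 with the treatment field. Over all genes, 3061 calls at ZT1 and 5401 at ZT13 became 2779 and 4634 with that filter, and 0 with the treatment field. Leaving out a mouse gave 6 to 8 called at ZT1, 7 to 8 at ZT13 and 0 to 1 between the LPS groups. The calls over all genes in these fits were 1767 to 3758, 4329 to 5547 and 0 to 345. Calls lost were those of *Aif1* at ZT1, *Cst7* at both times, and *Apoe* and *Lpl* at ZT13, and the cause was not tested. *Clec7a*, tested only with no filter, had 0.78 at ZT13 (adjusted p = 0.0047) and 0.20 at ZT1 (adjusted p = 0.72).

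Residual correlations of same-numbered mice were -0.20 to 0.33 over 20 pairs, and highest for replicate 5 of the LPS groups. Mice with different numbers were not compared, so these values cannot decide whether replicate numbers pair the mice. The replicate block left 6 members called at ZT1 and 7 at ZT13, with *Aif1* at 1.14 at ZT1 and *Cst7* at 0.87 and 0.88 not called. Of all genes, 2637 and 4680 were then called.

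Signs changed only for values that were not called. *Trem2* at ZT1 was 0.12 with quality weights. Between LPS groups, *Lpl* was -0.00026 with a pseudocount of 1, -0.011 with median-of-ratios factors, -0.051 with quantile normalization and -0.031 with quality weights, *Apoe* -0.0081 with median-of-ratios factors, -0.0095 with quality weights and -0.018 with the GC correction, and *Aif1* -0.048 with quality weights. Between PBS groups, *Apoe* was -0.0034 and *Gpnmb* 0.023 with quantile normalization, and *Gpnmb* 0.00049 with the GC correction. In the interaction, *Cst7* was 0.049 with a pseudocount of 0.1, *Apoe* 0.023 with quantile normalization and *Gpnmb* 0.020 with quality weights. Leaving out a mouse gave -0.12 to 0.17 for *Trem2* at ZT1. Between LPS groups it gave -0.17 to 0.21 for *Aif1*, -0.36 to 0.0012 for *Cst7*, -0.019 to 0.032 for *Apoe*, -0.066 to 0.047 for *Lpl* and -0.062 to 0.020 for *Gpnmb*. Between PBS groups it gave -0.28 to 0.055 for *Spp1*, -0.22 to 0.15 for *Aif1*, -0.094 to 0.052 for *Trem2*, -0.0072 to 0.070 for *Apoe*, -0.0042 to 0.071 for *Axl* and -0.17 to 0.13 for *Gpnmb*. In the interaction it gave -0.13 to 0.31 for *Aif1*, -0.19 to 0.20 for *Cst7*, -0.065 to 0.013 for *Apoe* and -0.16 to 0.15 for *Gpnmb*.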

Other observations

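Marker lists of cells other than myeloid cells gave the following counts after LPS. Of 7 endothelial genes 6 rose and 1 fell at ZT1 and 6 rose at ZT13, and 4 had a larger response at ZT13 (0 with no filter on low values, with no intensity trend, or without ZT1 PBS replicate 1 or ZT13 PBS replicate 2). The tight junction gene *Cldn5* rose by 0.88 on the log2 scale at ZT1 and by 2.24 at ZT13 and was lower at ZT13 than at ZT1 in PBS mice (-1.10, adjusted p = 0.0085), where 2 of the 7 were called lower, and 0 with no filter (adjusted p of *Cldn5* 0.19), with no intensity trend (0.15), or without ZT1 PBS replicate 1 or 2 or ZT13 PBS replicate 2 (0.051 to 0.054). *Pecam1*, an endothelial adhesion gene, was at 1.44 and 2.23. Of 7 astrocyte genes 4 rose at ZT1, and 4 rose and 1 fell at ZT13, with *Gfap* at 2.64 and 3.09, the water channel gene *Aqp4* at 0.42 and 0.73 and the glutamate transporter gene *Slc1a2* at -0.04 (not called) and -0.13 (not called with quantile normalization, adjusted p = 0.19).

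Of 7 neuron genes none rose, and 1 fell at ZT1 and 4 at ZT13 (7 with median-of-ratios factors), among them the synaptic vesicle genes *Syt1* (-0.06, not called, and -0.22) and *Slc17a7* (-0.09, not called, and -0.18). Of 6 oligodendrocyte genes 1 rose at each time, *Mobp* (0.30 and 0.18), and 2 fell at ZT1 and 4 at ZT13, including the myelin gene *Mog* (-0.42, not called, and -0.59 at ZT13). Of 4 oligodendrocyte precursor genes *Pdgfra* rose (0.27 and 0.25, the first not called with median-of-ratios factors, adjusted p = 0.078), *C1ql1* fell (-0.85 and -1.13) and *Gpr17* was at -0.28 (not called) and -0.56. Of 6 leptomeningeal fibroblast genes 1 rose and 1 fell at ZT1 and 2 rose and 2 fell at ZT13, with *Dcn* at 1.54 and 2.13, *Col1a1* at 0.13 (not called) and 0.30, *Slc22a6* at -0.63 and -0.87 and *Ogn* at -0.09 (not called) and -0.58.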
